A study of Rattus norvegicus with 13 samples.

Results

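The comparison covered here was between the maps of meiotic DNA double-strand breaks (DSBs) of 2 wild-type rat strains that carry different Prdm9 alleles, BN/RIJHsd (BN) and SHR/OlaIpcv (SHR), read along the autosomes. Each map came from 1 library of adult testis, prepared by single-stranded DNA sequencing (SSDS) with an antibody against DMC1, the recombinase that coats the single-stranded DNA at DSBs. The members were all windows of the deposited hotspot table on chromosomes 1 to 20, which was 91120 of its 96640 windows, and 2 of the 13 samples of the series. Windows were 3000 bp long in 91119 of the 91120 cases, and each carried for every library a hotspot strength and a mark for a called hotspot. Negative strengths were set to 0, and each library's strengths were divided by their autosomal sum, so that every value below is a share of that library's autosomal strength.

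Further libraries of adult testis were read beside the pair for scale. WKY (wild-type) carries the same Prdm9 allele as SHR, and SHR Prdm9+/- and SHR Prdm9-/- are rats of the SHR strain with 1 and 0 working copies of the gene, made by injection of a zinc-finger nuclease into SHR ova. According to the study, the SHR library came from a wild-type littermate of a male with the deletion. All libraries were 1 per strain and genotype, so no difference between BN and SHR had a replicate check and no p-value is given. BN and SHR differ over their whole genomes and not at Prdm9 alone, so strain and allele cannot be told apart in this pair.

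PRDM9 is a meiotic histone methyltransferase. Its array of zinc fingers binds DNA, and its PR/SET domain methylates histones at the places where breaks are made. The fingers vary between strains, and a change in the residues that touch DNA moves the hotspots to other sequences. On a larger scale, chromosome structure and distance from chromosome ends are known to shape how many breaks a region receives, which is why the maps were compared at several bin sizes.

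The SHR allele is shown by the recognition helices in a stretch of its zinc-finger array. In 399 bases of SHR genomic sequence given with the study, 4 whole fingers were found. They are numbered within these 399 bases, and the length of the whole array was not read here. The 24 bases below are the 8 codons of each recognition helix up to the first zinc-binding histidine, and the capitals mark the 3 codons of the main DNA-contacting residues.
SHR finger 1: CAGaagtcaGACctcatcAAGcac
SHR finger 2: CAGaagtcaAGCctcatcCAGcac
SHR finger 3: CAGaagtcaGACctcatcAAGcac
SHR finger 4: CGGaagtcaAACctcatcCAGcac
Fingers 1 and 3 had the same contact codons, so the 4 fingers of this stretch held 3 distinct sets. The BN array was not analysed here.

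The libraries of the pair were alike in total and in number of hotspots. Autosomal strength summed to 2827729 in BN and 2772601 in SHR. Hotspots were called in 18995 windows in BN (20.8% of the autosomal windows) and in 19898 in SHR (21.8%), with a median strength of 71 and 72. Windows with no call in a library still held 26.1% of the strength in BN and 22.3% in SHR, because the table also lists places called only in other libraries. Bin values are therefore also given from called windows alone. WKY differed in scale, with an autosomal sum of 12771894 and 58.2% of windows at a strength of 30 or more. The number of reads behind a strength is unknown.

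At the level of single windows the maps of BN and SHR had little in common. A window with a strength of 30 or more is called a site below, and there were 20434 sites in BN and 22164 in SHR. Both libraries reached 30 in 1284 windows, which is 6.28% of BN sites (Wilson 95% interval 5.96 to 6.62%) and 5.79% of SHR sites (5.49 to 6.11%). Over all autosomal windows, 22.4% were BN sites and 24.3% were SHR sites. At BN sites the median strength was 70 in BN and 2 in SHR, and at SHR sites it was 70 in SHR and 9 in BN. In contrast, 80.4% of SHR sites (79.8 to 80.9%) were sites in SHR Prdm9+/-, where 24.4% of all autosomal windows were sites. In WKY, 98.0% of SHR sites were sites, against 58.2% of all autosomal windows.

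The strongest windows of each library were near background in the other one. The 3 strongest BN windows were chr1:153132652-153135652, chr1:70144951-70147951 and chr16:69422438-69425438 of rn5, with strengths of 3008, 2976 and 2814. Their strengths in SHR were -32, -9 and 5. The 3 strongest SHR windows were chr1:153211965-153214965, chr3:53458839-53461839 and chr1:153000819-153003819, with strengths of 7282, 6649 and 3709. In BN these windows had strengths of -4, 9 and -45. They were not placed relative to genes, since an annotation of rn5 was not at hand.

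Hotspots were called in both libraries in 326 windows, out of the 18995 called in BN and the 19898 called in SHR. Over all autosomal windows, 20.8% were called in BN and 21.8% in SHR. Ranked by the smaller of the 2 shares, the first was chr3:52856859-52859859, with 1245 in BN and 403 in SHR. Its strength was 329 in SHR Prdm9+/- but 20, without a call, in WKY. The second was chr1:150837642-150840642, with 362 in BN, 2511 in SHR and 4477 in WKY. The third, chr6:59848639-59851639, was nearly even, with 362 in BN and 427 in SHR.

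Although their hotspots differed, the same 4-Mb stretch of chromosome 1 held the most summed strength in both strains. The centres of the strongest BN and the strongest SHR window lay only 79.3 kb apart. The 4 Mb from 150 to 154 Mb, boundaries chosen after the values were seen, held 0.897% of all BN strength and 1.33% of SHR strength, on 0.153% of the occupied 1-Mb bins. They ranked 1 among 2697 overlapping 4-Mb stretches in BN and in SHR alike. Single windows gave 0.263%, 0.134% and 0.091% of SHR strength there, and the strongest BN window gave 0.106% of BN strength. By number of sites, the 1-Mb bin with the most was instead on chromosome 15 at 9 to 10 Mb in both libraries. The 1-Mb bin with the most SHR strength was on chromosome 3 at 52 to 53 Mb. The stretch held 51 BN sites and 53 SHR sites among its 168 windows, and 6 windows were sites in both. Its share was 1.29% in SHR Prdm9+/-, 0.589% in WKY and 0.242% in SHR Prdm9-/-.

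Regional break density was compared by summing the shares of strength in bins. The rank correlation of BN and SHR grew with bin size. Spearman's rho across bins was 0.225 for 0.1-Mb bins (n = 22864), 0.538 for 1-Mb bins (n = 2610), 0.669 for 5-Mb bins (n = 541) and 0.762 for 10-Mb bins (n = 278). From called windows alone, these values were 0.06, 0.422, 0.557 and 0.662. The strength in common, which is the sum over bins of the smaller of the 2 shares, was 47.8% in 0.1-Mb bins, 77.0% in 1-Mb bins, 86.4% in 5-Mb bins and 89.5% in 10-Mb bins. Larger bins are unions of smaller ones, so this sum cannot fall with bin size for any pair of maps. Its rise is therefore no sign of similarity by itself. These correlations are descriptions, since all bins of a library come from 1 experiment and libraries share the table's windows, the mappable sequence and its base composition.

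**Figure D1:**
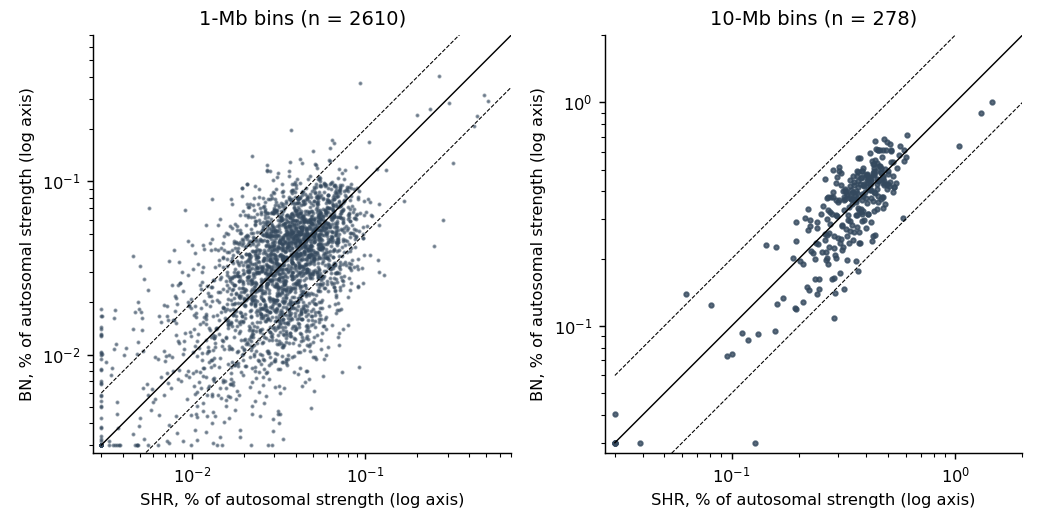
Share of autosomal strength per bin in BN (vertical) against SHR (horizontal), in percent on log axes, with 1 point per bin. The solid line marks equal shares, the dashed lines mark 2-fold differences, and bins under 0.003% (1 Mb, 81 bins) or 0.03% (10 Mb, 8 bins) in either library are drawn at the edge. The cloud of 1-Mb bins is wide (rho 0.538), and the 10-Mb bins lie close to the line (rho 0.762), with the highest share of both libraries in one bin at the upper right.

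The libraries with the SHR allele gave the scale for these values. SHR and SHR Prdm9+/- correlated at 0.923 in 0.1-Mb bins and at 0.967 in 10-Mb bins. SHR and WKY correlated at 0.849 in 0.1-Mb bins, 0.781 in 1-Mb bins and 0.834 in 10-Mb bins. The gap between BN and SHR on the one hand and WKY and SHR on the other was thus 0.225 against 0.849 at 0.1 Mb and 0.762 against 0.834 at 10 Mb. With all windows, BN was closer to WKY than to SHR at each size, with rho of 0.313 at 0.1 Mb, 0.734 at 1 Mb and 0.928 at 10 Mb for BN and WKY. The value for BN and WKY was below that for WKY and SHR at 0.1 and 1 Mb and above it at 10 Mb. From called windows alone the 10-Mb values were 0.878 for BN and WKY, 0.760 for WKY and SHR and 0.662 for BN and SHR. By number of called hotspots they were 0.813, 0.815 and 0.725, so that the order of BN and WKY against WKY and SHR turned with the weighting. By number the 5-Mb values of these pairs were 0.762, 0.804 and 0.661.

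**Figure D2:**
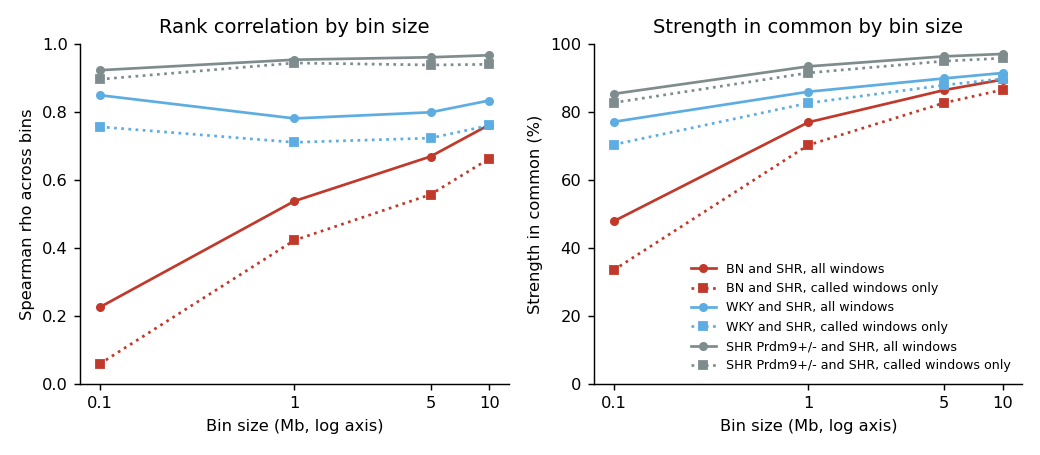
Spearman's rho (left) and strength in common in percent (right) against bin size in Mb (log axis) for SHR compared with BN, WKY and SHR Prdm9+/-; solid lines are all windows and dotted lines are called windows only. BN rises from 0.225 to 0.762 in rho and from 47.8% to 89.5% in strength in common, and SHR Prdm9+/- stays above 0.89 and 82% throughout. Strength in common cannot fall with bin size, because the bins are nested.

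Bins that differed at least 2-fold became rare with size. They were counted among bins whose mean share was at least 0.5 of an even share. In 1-Mb bins, BN was higher in 236 of 2145 (11%) and SHR in 319 (14.9%). The median fold between the libraries was 1.49 at this size. In 5-Mb bins, BN was higher in 4 of 488 (0.82%) and SHR in 20 (4.1%), and in 10-Mb bins BN was higher in 0 of 257 (0%) and SHR in 4 (1.56%). The median fold fell to 1.27 in 5-Mb bins and 1.20 in 10-Mb bins. The small counts depended on the strongest windows. Without the strongest 1% of windows of each library, SHR was higher in 6 of 496 5-Mb bins and BN in 5, and in 10-Mb bins 1 of 255 was left. From called windows alone there were 16 10-Mb bins, 4 higher in BN and 12 higher in SHR.

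The same count in the other libraries was as follows. WKY was 2-fold over SHR in 50 of 2158 1-Mb bins (2.32%) and SHR over WKY in 93 (4.31%), in 5-Mb bins 1 of 485 (0.206%) and 9 (1.86%), and in 10-Mb bins 0 of 254 (0%) and 4 (1.57%). SHR Prdm9+/- was 2-fold over SHR in 0 of 2120 1-Mb bins (0%), and SHR over SHR Prdm9+/- in 1 (0.0472%). Neither direction was met in the 494 5-Mb bins (0 bins, 0%) or the 257 10-Mb bins (0 bins, 0%) of that pair. At 1 Mb, BN and SHR thus had more 2-fold bins than either of the pairs with a shared allele, and at 10 Mb the count of all windows was 4 for both BN and SHR and WKY and SHR. From called windows alone, WKY was higher in 2 of 253 10-Mb bins and SHR in 7, against the 4 and 12 of BN and SHR. BN and WKY also differ in allele. With all windows, that pair was past 2-fold in 14.7% of 2051 1-Mb bins, 0.433% of 462 5-Mb bins and 0 of 245 10-Mb bins (0%). WKY and SHR had 6.63%, 2.06% and 1.57% at these sizes, so at 5 and 10 Mb the pair with a shared allele had more.

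The 10-Mb bins with the lowest BN over SHR ratio lay mostly at chromosome ends. The ratio was 0.377 in the last bin of chromosome 14 (110 to 120 Mb), 0.460 in that of chromosome 2 (280 to 290 Mb), 0.477 in that of chromosome 18 (80 to 90 Mb) and 0.485 in the first bin of chromosome 11 (0 to 10 Mb). These were the 4 bins past 2-fold, and the next was chromosome 9 at 100 to 110 Mb with 0.522. On chromosome 14 the bin held 0.108% of strength in BN and 0.287% in SHR, from 22 and 53 sites. WKY had 0.117% there and SHR Prdm9+/- had 0.237%. In each of these first 4 bins WKY was nearer to BN and SHR Prdm9+/- was nearer to SHR.

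The 10-Mb bins with the highest ratio were interior or close to an end. They were chromosome 1 at 220 to 230 Mb (1.76), chromosome 15 at 20 to 30 Mb (1.73), chromosome 3 at 170 to 180 Mb (1.70), chromosome 18 at 70 to 80 Mb (1.64) and chromosome 15 at 30 to 40 Mb (1.62). The chromosome 1 bin held 0.5002% of BN strength from 108 sites and 0.284% of SHR strength from 82 sites, while WKY had 0.410% and SHR Prdm9+/- had 0.282%. On chromosome 18, a bin low in BN followed directly after a bin high in BN at the end of the chromosome. All 4 of the 5-Mb bins in which BN was 2-fold higher, named here after their values were seen, were on chromosomes 13 and 15. The ratio was 3.19 on chromosome 15 at 5 to 10 Mb, 2.28 at 25 to 30 Mb and 2.18 at 65 to 70 Mb, and it was 2.44 on chromosome 13 at 20 to 25 Mb.

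The richest bins were partly the same in the strains. The 10-Mb bins at 150 to 160 Mb of chromosome 1 (1.01% in BN, 1.47% in SHR) and at 50 to 60 Mb of chromosome 3 (0.899% and 1.31%) ranked 1 and 2 in both libraries, against an even share of 0.360%. Of the 25 richest 10-Mb bins, 11 were the same in BN and SHR (44% of each list), compared with 16 for SHR and WKY and 20 for SHR and SHR Prdm9+/-. Of the 100 richest 1-Mb bins, 19 were the same (19% of each list), compared with 50 and 73. The lists of 25 and 100 bins were 8.99% and 3.83% of all bins of their size. The 3 richest 1-Mb bins of BN were chromosome 1 at 152 to 153 Mb (0.409%), chromosome 15 at 9 to 10 Mb (0.371%) and chromosome 1 at 153 to 154 Mb (0.317%). In SHR they were chromosome 3 at 52 to 53 Mb (0.511%), chromosome 1 at 153 to 154 Mb (0.488%) and chromosome 1 at 148 to 149 Mb (0.441%). A single window gave 53.8% of the SHR share of the 153 to 154 Mb bin and 33.5% of the BN share.

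Regions resembled each other in the number of hotspots and much less in how strong these were. In the 263 10-Mb bins with at least 20 calls in BN and in SHR, the number of called hotspots correlated between BN and SHR at 0.676. A bin held 21 to 144 hotspots in BN and 25 to 127 in SHR. The mean strength of the called hotspots correlated at only 0.126 and their median at 0.127. Mean strength was also weakly related between SHR and WKY (0.171), where number correlated at 0.781. Between SHR and SHR Prdm9+/- the values were 0.613 for mean strength and 0.923 for number.

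Chromosome shares differed little between BN and SHR. The BN share was within 10% of the SHR share on 16 of 20 chromosomes, and the ratio ranged from 0.870 to 1.24. It was highest on chromosome 12 (1.24), chromosome 15 (1.22) and chromosome 19 (1.10), and lowest on chromosome 13 (0.870), chromosome 16 (0.913) and chromosome 9 (0.916). The SD of the log2 ratio over chromosomes was 0.13 for BN, 0.09 for WKY and 0.03 for SHR Prdm9+/-, each over SHR. Chromosome 15 stood out in strength and in number, with 4.73% of the strength in BN and 3.88% in SHR. It had 853 of the BN hotspots (4.49%, Wilson interval 4.21 to 4.79%) and 718 of the SHR hotspots (3.61%, 3.36 to 3.88%). Without the bin at 9 to 10 Mb its ratio of strength was 1.16. Chromosome 12 differed in strength (2.04% and 1.64%) but had 374 and 371 called hotspots, and WKY had 1.18 times the SHR share there. Chromosome 13 had 608 hotspots in BN and 786 in SHR, with 3.16% and 3.63% of the strength.

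The intervals of the share of called hotspots did not overlap on 5 of 20 chromosomes. BN was higher on chromosomes 2 and 15 and lower on chromosomes 13, 16 and 20, and on chromosome 2 the gap between the intervals was 10.108 to 10.111%. These intervals cover the counting of hotspots only and not the difference between libraries.

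**Figure D3:**
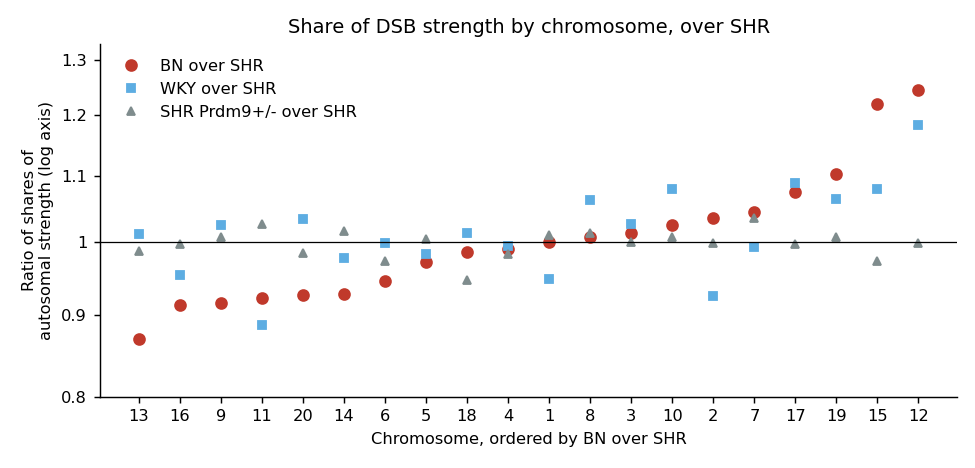
Ratio of the share of autosomal strength to that in SHR (log axis) for BN, WKY and SHR Prdm9+/- on each of the 20 autosomes, ordered by the BN ratio. BN runs from 0.870 on chromosome 13 to 1.24 on chromosome 12, and the SHR Prdm9+/- points stay between 0.946 and 1.04.

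Break density near chromosome ends differed in where it rose. Density was the share of strength per Mb, and it was divided by that of the interior, which is all sequence over 10 Mb from both ends. Over the last 10 Mb as a whole it was 1.10 in BN and 1.20 in SHR, and over the first 10 Mb it was 0.876 and 0.979. For the last 10 Mb this was no larger than the difference between SHR and SHR Prdm9+/-, which also had 1.10, and for the first 10 Mb SHR Prdm9+/- had 0.914. By number of called hotspots the last 10 Mb had 1.07 in BN, 1.195 in SHR and 1.27 in SHR Prdm9+/-, so that SHR Prdm9+/- then lay above SHR. The last 10 Mb exceeded the interior on 16 of 20 chromosomes in BN and on 14 in SHR. The BN value turned to below 1 with another length: it was 0.997 per occupied 1-Mb bin, where SHR had 1.09. With an end zone of 5 Mb, and an interior that then began 5 Mb from the ends, the last zone had 0.793 in BN and 1.24 in SHR.

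Finer classes of distance, drawn up after the values were seen, separated the strains more. In the last 2 Mb the density was 0.436 in BN and 0.907 in SHR, from 132 and 306 sites on all 20 chromosomes. It was 1.05 and 1.47 at 2 to 5 Mb from the end. At 5 to 10 Mb the order turned, with 1.40 in BN and 1.16 in SHR, and at 10 to 20 Mb it was 1.11 and 0.984. The highest class was thus 2 to 5 Mb from the end in SHR and 5 to 10 Mb in BN. From called windows alone the last 2 Mb had 0.296 and 0.956.

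The same order held chromosome by chromosome. BN was lower than SHR in the last 2 Mb on 20 of 20 chromosomes and in the last 5 Mb on 18. At 5 to 10 Mb from the end it was lower on 4. Read against the same SHR library, WKY was lower in the last 2 Mb on 20, in the last 5 Mb on 19 and at 5 to 10 Mb on 4, and SHR Prdm9+/- on 15, 19 and 11. The median over chromosomes was 0.413 in BN and 0.889 in SHR in the last 2 Mb, and 1.41 and 1.23 at 5 to 10 Mb. At the start of chromosomes, BN was lower in the first 5 Mb on 14 of 20, with medians of 0.745 and 1.16. SHR Prdm9+/- was lower than SHR there on 14 as well, and WKY on 17. A higher density in the SHR library than in each of the other libraries near the ends was thus not particular to the comparison with BN.

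WKY, with the same allele as SHR, followed the BN profile at the ends. Its density in the last 2 Mb was 0.533 and at 5 to 10 Mb 1.45, and SHR Prdm9+/- had 0.824 and 1.13. SHR Prdm9+/-, of the same strain and allele as SHR, was nearest to SHR in the last 2 Mb. With 1 library each, allele, strain, animal and library cannot be told apart.

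**Figure D4:**
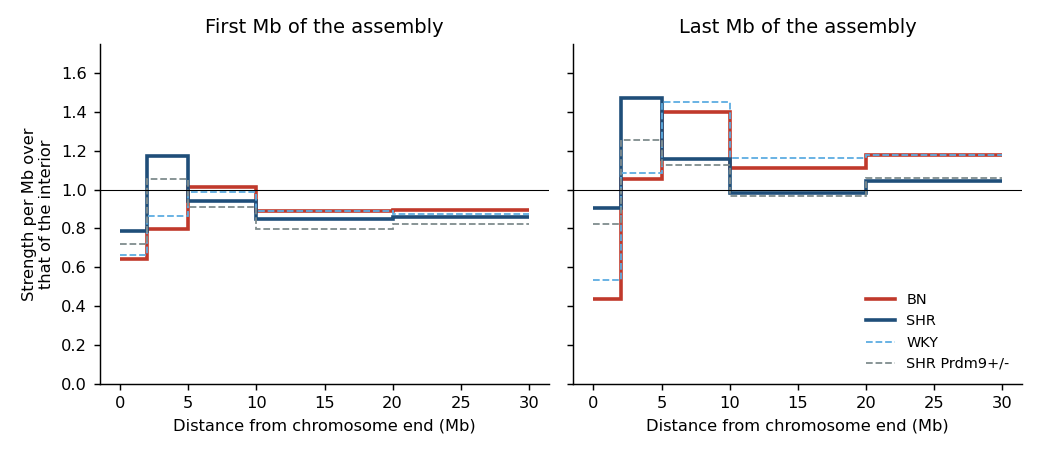
Strength per Mb divided by that of the interior against distance in Mb, summed over 20 autosomes. Distance is from the start of the assembled chromosome (left) and from the end of the last window (right). BN and WKY lie low within 5 Mb of the end and rise at 5 to 10 Mb (1.40 and 1.45), and SHR and SHR Prdm9+/- peak at 2 to 5 Mb (1.47 and 1.25).

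Spacing of sites had nearly the same median in the strains. The distance between neighbouring sites had a median of 70.1 kb in BN and 71.7 kb in SHR, with quartiles of 24.99 and 155 kb in BN and 27.3 and 154 kb in SHR. BN had more distances at both extremes than SHR. Distances under 10 kb made up 13.1% in BN (12.6 to 13.5%) and 11.9% in SHR (11.4 to 12.3%), and SHR Prdm9+/- had 13.03% (12.6 to 13.5%), close to BN. Distances over 500 kb numbered 759 (3.72%) in BN and 529 (2.39%) in SHR, and those over 1 Mb 132 and 92. SHR Prdm9+/- had 595 (2.68%) over 500 kb and 91 over 1 Mb. The share of BN sites that passed 30 without a call was smaller than in SHR, with 1776 and 3688 such windows.

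The longest distances fell on stretches with few windows in the whole table. On chromosome 4 there was no site between 67.962 and 133.251 Mb in BN and between 67.824 and 133.219 Mb in SHR, which is 65.3 and 65.4 Mb. The table has no window for any library over 65.2 Mb of this. The second longest was on chromosome 2, with 20.2 Mb in BN and 20.3 Mb in SHR, of which 20.1 Mb hold no window. Whether rn5 has mappable sequence there was not tested.

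Distances from BN sites to SHR sites and to other BN sites were as follows. The nearest SHR site was at a median of 33.1 kb from a BN site, where a site in the same window counts as 0 kb, and the nearest other BN site was at 33.1 kb. Within 10 kb, 21.8% of BN sites had an SHR site (21.3 to 22.4%) and 23.0% had another BN site (22.4 to 23.6%). The 21.8% is made up of 6.28% of BN sites with an SHR site in the same window and 15.5% with one only in another window. From SHR sites the nearest BN site was at 38.6 kb and the nearest other SHR site at 34.4 kb, and 20.0% had a BN site within 10 kb (19.5 to 20.5%). These shares rise with the number of sites and fall with a higher threshold, from 31.2% at a strength of 20 to 15.5% at 50 for BN sites.

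BN sites were more clustered among themselves than SHR sites. For this, the density of sites around a site was divided by that at 500 to 1000 kb. Around BN sites, the density of BN sites was 1.74 at 3 to 5 kb, 1.55 at 10 to 20 kb, 1.30 at 50 to 100 kb and 1.14 at 200 to 500 kb. Around SHR sites, the density of SHR sites was 1.15, 1.14, 1.08 and 1.02 at these distances. SHR sites around BN sites were in between, with 1.28 at 3 to 5 kb and 1.21 at 10 to 20 kb. SHR Prdm9+/- had 1.25 and WKY 1.21 at 3 to 5 kb among their own sites. The WKY value is not directly comparable, since 58.2% of its windows pass the same cutoff of 30. From 3 to 20 kb, the measure changed with the cutoff in BN, from 1.48 at 20 to 1.87 at 50. In SHR it was 1.13 and 1.15. From 3 to 20 kb, BN was above SHR on 19 of 20 chromosomes.

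**Figure D5:**
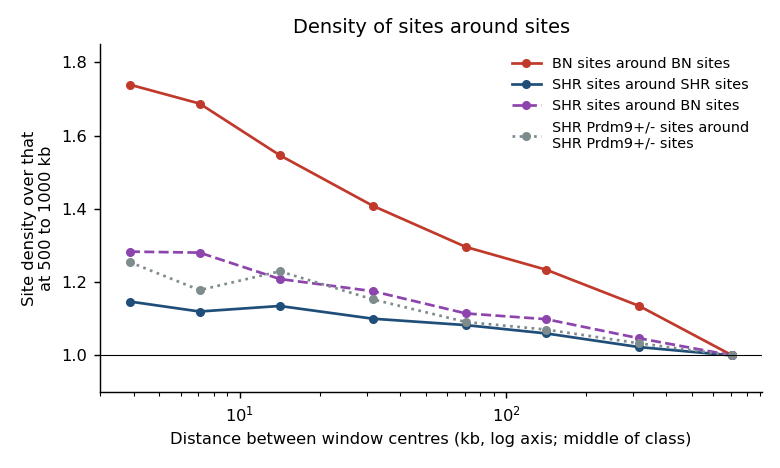
Density of sites around sites, divided by that at 500 to 1000 kb, against the distance between window centres in kb (log axis). The BN curve starts at 1.74 and the SHR curve at 1.15, with SHR sites around BN sites and SHR Prdm9+/- sites around their own at 1.28 and 1.25.

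Part of the BN clustering lay in a few dense places. The number of sites per occupied 1-Mb bin had a mean of 7.83 in BN and 8.49 in SHR, but its variance was 3.83 times the mean in BN and 1.95 times in SHR. A bin without any site was met 69 times in BN and 51 times in SHR, and a bin with 20 or more sites 30 and 17 times. SHR Prdm9+/-, with 22203 sites, had 35 bins without a site and 36 with 20 or more, and its variance was 2.34 times the mean. The variance was 3.91 times the mean in WKY and 6.19 times in SHR Prdm9-/-, so a value as high as in BN was not particular to BN. WKY had 53013 sites, so its value is not directly comparable with those of the pair. The 30 dense BN bins, out of 2610 occupied bins, held 4.50% of BN sites and 1.78% of SHR sites. They were chosen by their BN sites, so a lower SHR share follows in part from the choice. The 42 bins dense in either library held 5.19% of BN sites and 2.96% of SHR sites. Over 3 to 20 kb the relative density was 1.61 in BN and 1.13 in SHR, and without the 42 bins that were dense in either library it was 1.23 and 1.10. BN was then still above SHR on 19 of 20 chromosomes. Without overlapping windows, which are 9.28% of all, it was 1.33 and 1.10.

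The 1-Mb bin with the most BN sites was chromosome 15 at 9 to 10 Mb. It held 113 BN sites among its 134 windows, of which 65 were called, and its strongest BN window had 302. SHR had 31 sites and 3 calls there, and this was its maximum as well. The share of strength was 0.371% in BN, 0.094% in SHR, 0.241% in WKY, 0.131% in SHR Prdm9+/- and 0.096% in SHR Prdm9-/-. Next in BN were chromosome 1 at 186 to 187 Mb with 74 sites against 27 in SHR, chromosome 7 at 21 to 22 Mb with 67 against 21 and chromosome 9 at 20 to 21 Mb with 55 against 9. These bins were picked by their BN sites, and that choice favours BN in the comparison. In the chromosome 1 bin WKY had 64 sites and SHR Prdm9+/- 26, with the difference in the scale of WKY as given above. Whether repeated or duplicated sequence lies in these bins was not tested.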

How the data were processed

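Frozen adult testes were used for DMC1 SSDS. According to the study's methods, reads were aligned to rn5 with a modified bwa 0.7.12, fragments derived from single-stranded DNA were identified, and hotspots were called from uniquely mapping type 1 fragments. The submitters' processing notes also name bedtools 2.23.0 and MACS2 2.1.0.20150420. The deposited table gives, per window and library, a strength, which is treated as a score because its definition and normalization are not given in the sources used here, and the authors' mark of a called hotspot. It covers 5 libraries, and the other 8 samples were not analysed here. All its columns were assigned by strain and genotype.

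Strengths below 0 were set to 0 and divided by the autosomal sum. A window was placed in a bin by its centre, and chromosome length was taken up to the last window. Sites had a strength of at least 30, and distances were between window centres. Bin folds required 0.5 of an even share. Since overlapping windows share signal, they were left out in one alternative. Intervals are Wilson 95% intervals and cover counting error only. The members and lists were chosen with earlier results of these data known. Windows, bins, chromosomes and gaps were named as the extremes by strength, smaller share, ratio or length. Alternatives changed the treatment of negative strengths, the windows used, bin position, end zone and site threshold. Python 3.11.15, numpy 2.4.6, pandas 2.3.3, scipy 1.17.1 and statsmodels 0.14.6 were used, with functions tested on simulated data (12 of 12 answers recovered).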

Additional observations from a re-analysis of the deposited data

How the results depend on the processing

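Values with no test were taken as unmoved within 10% of the reported value, counts within 1.5 times and shares of sites within their interval. Of 108 alternative values, 67 were unmoved, 37 moved and 4 turned direction, and the causes were not tested beyond what each alternative changes. From called windows alone rho was 0.422, 0.557 and 0.662 in 1-, 5- and 10-Mb bins, 59 5-Mb and 16 10-Mb bins were past 2-fold, and the SD of the log2 chromosome ratio was 0.17. Pearson's r on the log2 scale was 0.631, 0.807 and 0.874. Without the strongest 1% of windows, 11 5-Mb bins and 1 10-Mb bin were past 2-fold. By number of hotspots the chromosome SD was 0.17, and the first 10 Mb had 0.782 in BN and 0.880 in SHR. With an end zone of 5 Mb, density turned to 0.793 at the end in BN and to 1.01 at the start in SHR, and was 0.724 at the start in BN. Per occupied 1-Mb bin, chosen after seeing the data, it turned to 0.997 at the end in BN and to 1.09 at the start in SHR, and was 0.979 at the start in BN. Median spacing in BN and SHR was 59.5 and 58.2 kb at a strength of 20, 94.8 and 102 kb at 50, and 83.1 kb in both without overlapping windows. The share of BN sites near an SHR site, and of SHR sites near a BN site, was 31.2% and 28.0% at a strength of 20, 15.5% and 15.05% at 50, 17.9% and 17.2% for called windows, 17.0% and 15.5% without overlapping windows and 9.78% and 8.81% within 3 kb. Relative density of BN and of SHR sites at 3 to 20 kb, with alternatives chosen after seeing the data, was 1.48 and 1.13 at a strength of 20. It was 1.87 and 1.15 at 50, 1.42 and 1.10 for called windows and 1.33 and 1.10 without overlapping windows. For the 10000 strongest windows it was 2.14 and 1.21, and without dense bins 1.23 and 1.10. No paired analysis was possible because each condition had 1 library. The unknown number of reads limits how far weak strengths can be read.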

Other observations

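The SHR Prdm9-/- library, whose share is given above for a stretch of chromosome 1 and a bin of chromosome 15, had the following values on the other measures. It correlated with SHR at 0.505 in 1-Mb bins and 0.710 in 10-Mb bins. The SD of the log2 ratio of chromosome shares over SHR was 0.30, with a ratio from 0.701 to 1.62, the latter on chromosome 20. Its density in the last 10 Mb was 1.31 times that of the interior, and its own sites had a relative density of 1.41 at 3 to 5 kb and 1.64 at 5 to 10 kb.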
